A study of Bos taurus with 96 samples.

Results

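Intermuscular fat (Inter), the fat that lies between muscles, was compared with kidney fat (Kid), the fat packed around the kidney inside the abdominal cavity, by taking every array labelled with either depot. This gave 24 of the 96 arrays in the series, 12 Inter and 12 Kid, with 4 arrays of each breed (Angus, Hereford, Wagyu x Angus) in each depot. All 24 samples carry the pasture feeding label, and the steers of both depots were about 26 months old at slaughter after 259 days on grain, by the study's design and methods. The labels give 259 days as the age of every sample, the same number as the days on grain. Tissue was dissected at the abattoir and snap frozen, and 50 ng of total RNA per sample was hybridised to a one colour Agilent bovine array. The methods describe 15 steers, 5 per breed, with samples taken forward by RNA integrity, and the labels do not tie an array to an animal, so that an Inter and a Kid array can come from the same steer without this being known. The p-values therefore measure the spread between these samples. In bulk tissue, fewer cells of a type and less RNA per cell cannot be told apart, and this holds for every gene below.

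White fat stores triacylglycerol, and each depot keeps a record of where in the body it formed in the transcription factors its cells express. HOX genes, ordered along their clusters, mark position along the head to tail axis, while factors such as SHOX2, EMX2 and EN1 mark limb, trunk and dorsal or ventral territories of the embryo. Fat between muscles is embedded in fibrous sheets of collagen next to muscle and tendon, whereas kidney fat is a soft visceral depot which in young ruminants is rich in brown fat. Precursor cells of adipocytes are held back or advanced by secreted signals of the BMP, activin, WNT and IGF families.

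Levels are on a log2 scale of the spot's processed signal with the array's own 75th percentile subtracted, so that 0 is the brightness of the probe at that percentile. A difference is the Inter mean minus the Kid mean on this log2 scale with breed in the model, and the threshold is an adjusted p of 0.05 over all 34227 probes tested. The arrays were of like quality, with 78.3 to 86.4% of spots well above background in Inter and 78.9 to 85.4% in Kid, and no spot was saturated. Both depots carried the markers of adipocytes, since all 11 adipocyte genes measured were above background on at least 6 arrays of a depot and their summed level was 9.15 to 9.77 in Inter and 9.16 to 10.03 in Kid. ADIPOQ, the hormone adiponectin, differed by 0.06 ± 0.15 (SE), PLIN1, the coat protein of the lipid droplet, by 0.19 ± 0.21, and FABP4, the fatty acid binding protein of adipocytes, by -0.04 ± 0.10. None of these passed the threshold.

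A pair of facts about the arrays touch every result. First, all 12 Inter arrays were scanned on 1 day, on which 6 of the 12 Kid arrays were scanned as well, while the other 6 Kid arrays were scanned on other days. Within Kid alone, 650 probes differed between the 6 arrays of the Inter scan day and the 6 others, 642 of them higher on the Inter scan day. Of the 109 genes named by rule that passed the threshold, 59 also passed against the 6 Kid arrays of the same day and 50 did not, while all 109 kept their direction. The genes that did not pass are named with their groups. Second, 2 arrays went against their labels. The library labelled Kid Hereford replicate 2 had only Inter arrays among its 5 most similar arrays (Pearson correlation over all probes tested), and the library labelled Inter Angus replicate 3 was most similar to Kid Angus replicate 1, although the other 4 of its 5 most similar arrays were Inter. Kid Angus replicate 1 itself had 3 Inter arrays among its 5. Of the 30 genes named next as the most different, Kid Hereford replicate 2 was nearer to the Inter mean in 24 and Inter Angus replicate 3 was nearer to the Kid mean in 19, against 1 to 6 genes on the wrong side in each of the other 22 arrays. Kid Hereford replicate 2, Inter Angus replicate 3 and Kid Angus replicate 1 lay on the same slide. The remaining array of that slide, Inter Angus replicate 4a, was most similar to Kid Hereford replicate 2 and had 2 Kid arrays among its 5. The arrays said here to go against their labels are Kid Hereford replicate 2 and Inter Angus replicate 3, the latter on the count of genes rather than on the correlation. They were kept under their labels, and values without them are given with some results and at the end. Kid Hereford replicate 2 is 1 of the 6 Kid arrays of the Inter scan day. With the 2 arrays left out, 22 named genes that passed over all arrays did not pass on that day, instead of 50. They were left out after their values were seen and because they resembled the other depot, which by itself makes the depots differ more.

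Of the 34227 probes, 5205 differed between Inter and Kid, or 15.2% of those tested. Of these 2701 were higher in Inter (7.89%) and 2504 lower (7.32%). Taking for each named gene its brightest probe, 1794 of 10658 genes differed, 692 higher in Inter (6.49%) and 1102 lower (10.3%), and the median difference over all genes was -0.09. Against the 6 Kid arrays of the same scan day, 2894 probes differed (8.46%), 991 higher and 1903 lower, and 1675 of them were among the 5205. With one probe per gene, 2.96% of all genes were higher in Inter and 5.19% lower in that comparison. All 5205 had the same direction against the same day Kid arrays, which are a subset of the arrays used before. Without the 2 arrays that went against their labels the count was 7352. With the slide as a random block 1162 probes differed, all of them among the 5205, and only 1 of the 8 slides held both depots. Of the 109 genes named by rule 55 passed with that block and 54 did not. Among the 30 genes most different those that did not were TNMD, CLDN10, GARIN4, GYS2, CYP1A1, PLG, CD180 and GRB14. The other named genes that did not pass with the block are not marked one by one below. With one probe per gene 2.07% of all genes were then higher in Inter and 1.75% lower. The lists counted 6 higher of 14 collagen chains, 4 higher of 15 activin, BMP and TGF-beta genes, 3 lower of 18 HOX genes, 2 lower of 81 respiratory chain genes and 1 lower of 75 mitochondrial ribosome genes. No gene passed among those of the IGF axis, cholesterol synthesis, red blood cells, the adrenal gland, the kidney or the mesothelium by limma with this block. Nor did any of the fatty acid uptake, interferon-stimulated, heat shock or cytosolic ribosome genes. The split between higher and lower depended on scaling and scan day: 51.9% of the differing probes were higher in Inter, but 34.2% against the same day Kid arrays, 69.3% with each array centred on its mean and 91% with the series matrix values as deposited, under which the median of all probes shifted from -0.04 to 0.13.

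No probe depended on breed past the threshold (0 of 34227 by limma, 0%), with 1181 at an unadjusted p under 0.05. The p-values do not show that the breeds were alike, since each breed holds 4 arrays a depot. With limma within single breeds, 195 probes passed in Wagyu x Angus and 0 in Angus and in Hereford, where 2561 and 3398 had an unadjusted p under 0.05. The 2 arrays that went against their labels are an Angus and a Hereford array.

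The genes highest in Inter over Kid were led by ZIC4, a zinc finger transcription factor of the Zic family, and KERA. The lowest, median and highest level of ZIC4 were -7.0, -1.27 and -0.64 in Inter and -9.44, -8.12 and -1.12 in Kid. The lowest Inter array was Inter Angus replicate 3 at -7.0, and the highest Kid array was Kid Hereford replicate 2 at -1.12. The difference was 5.66 ± 0.82 (SE, adjusted p = 0.0005), and 5.11 (adjusted p = 0.023) against the same day Kid arrays. Only 3 of the 12 Kid arrays had ZIC4 well above background, so the size rests on dim spots in Kid. KERA, which encodes the proteoglycan keratocan of collagen fibrils, had levels of -3.36, -0.98 and 2.23 in Inter and -7.09, -6.09 and -2.64 in Kid, where only Kid Hereford replicate 2 exceeded the lowest Inter array. Its difference was 5.16 ± 0.59 (SE, adjusted p = 8.2e-05), and 5.04 (adjusted p = 0.014) on the same day.

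ANGPTL5, a secreted angiopoietin-like protein, differed by 4.73 ± 0.60 (SE) and WWC1, a scaffold of the Hippo growth pathway, by 3.87 ± 0.49. CXCL14, a chemokine of epithelia and fat, had levels of -2.31, 1.38 and 2.55 in Inter and -4.63, -3.77 and 0.64 in Kid, a difference of 4.17 ± 0.60 (SE, adjusted p = 0.00049) that was 3.91 on the same day. Its lowest Inter value belonged to Inter Angus replicate 3, and its highest Kid value to Kid Hereford replicate 2. SPP2, a secreted phosphoprotein of bone, differed by 3.25 ± 0.56, STOML3, a stomatin-like membrane protein of sensory neurons, by 3.36 ± 0.62, FOXP2, a forkhead transcription factor, by 2.73 ± 0.43, and CYP4B1, a cytochrome P450 that hydroxylates fatty acids, by 2.65 ± 0.46. The others of the 15 highest were TNMD, THBS4, SHOX2 and CLDN10, which are taken up with their groups, and CCDC89 (3.07) and FNDC1 (2.74).

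**Figure D1:**
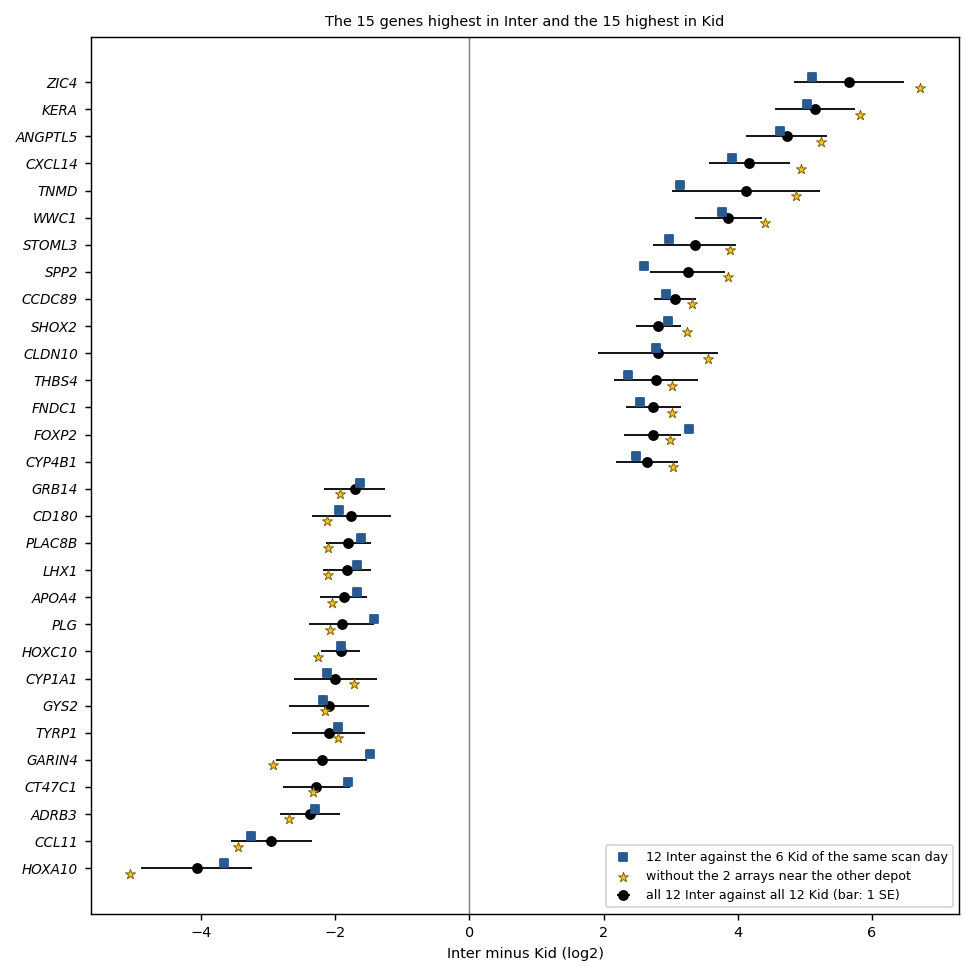
Inter minus Kid difference (log2, horizontal axis) of the 15 genes highest in Inter and the 15 highest in Kid. Black points with bars of 1 SE use all 12 Inter and 12 Kid arrays, blue squares the 6 Kid arrays of the same scan day, and yellow stars leave out the 2 arrays that went against their labels. The differences run from -4.07 for HOXA10 to 5.66 for ZIC4, and all 30 keep their direction in the same day comparison.

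The gene highest in Kid over Inter was HOXA10, followed by CCL11 and ADRB3. CCL11, the eosinophil attracting chemokine eotaxin, had levels of -9.80, -6.77 and -5.55 in Inter and -8.63, -3.96 and -1.91 in Kid and differed by -2.96 ± 0.61 (SE, adjusted p = 0.0042). It was well above background on 5 Inter and 11 Kid arrays. ADRB3, the beta-3 adrenergic receptor through which catecholamines start lipolysis and heat production in fat cells, had levels of -3.61, -0.75 and 0.90 in Inter and 0.17, 1.34 and 2.16 in Kid. Of the 12 Kid arrays 9 lay above every Inter array. The difference was -2.38 ± 0.44 (SE, adjusted p = 0.0024), a 5.21-fold lower level in Inter, and -2.31 (adjusted p = 0.038) against the same day Kid arrays. GYS2, the glycogen synthase known from liver, differed by -2.09 ± 0.60, CYP1A1, the cytochrome P450 induced through the aryl hydrocarbon receptor, by -2.0 ± 0.62 (-1.72 and an adjusted p of 0.058 without the 2 arrays), and GRB14, an adaptor that inhibits the insulin receptor, by -1.71 ± 0.46. TYRP1, an enzyme of melanin synthesis, differed by -2.10 ± 0.54, with 5 Inter and 10 Kid arrays well above background.

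APOA4, an apolipoprotein, differed by -1.88 ± 0.35 (SE, adjusted p = 0.0025), and 11 of 12 Kid arrays lay above all Inter arrays. PLG, which encodes plasminogen, differed by -1.91 ± 0.49, with 3 Inter and 10 Kid arrays above background. CD180, a Toll-like receptor relative of B cells, differed by -1.76 ± 0.59, and the remaining members were PLAC8B (-1.81), CT47C1 (-2.28) and GARIN4 (-2.21). Among all 30 genes, 12 of the 15 highest in Inter and 7 of the 15 highest in Kid also passed against the same day Kid arrays. Those that did not were TNMD, CLDN10 and THBS4 among the first, and HOXA10, CT47C1, GARIN4, TYRP1, GYS2, CYP1A1, CD180 and GRB14 among the second.

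HOX genes that differed were all lower in Inter. Of 18 HOX genes measured, 5 were lower in Inter (27.8%, against 10.3% of all genes), 0 were higher and 13 did not pass, with a median difference of -0.32 against -0.09 over all genes. HOXA10, a HOX gene of the posterior body, had levels of -8.37, -5.29 and -1.25 in Inter and -7.67, -0.27 and 0.43 in Kid. Every Kid array but 1 lay at -1.72 or above, and the exception was Kid Hereford replicate 2 at -7.67. The highest Inter array was Inter Angus replicate 3 at -1.25, and the SD was 2.21 in Inter and 2.19 in Kid. The difference was -4.07 ± 0.82 (SE, adjusted p = 0.004), and -3.66 (adjusted p = 0.061) on the same day.

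HOXC10, its counterpart in the HOXC cluster, had levels of -3.92, -3.14 and -1.19 in Inter and -3.13, -0.94 and -0.17 in Kid, and its highest Inter and lowest Kid values belonged to the same 2 arrays. It differed by -1.92 ± 0.29 (SE, adjusted p = 0.00078), and by -1.92 (adjusted p = 0.021) on the same day. Smaller differences were measured for HOXA9 at -1.16 ± 0.29 (SE, adjusted p = 0.012) and HOXC4 at -0.82 ± 0.19 (SE, adjusted p = 0.009). HOXB9, named after its value was seen, differed by -1.13 ± 0.30 (SE, adjusted p = 0.018). The other 13 lay between -0.46 for HOXD10 and 0.22 for HOXB4. Against the same day Kid arrays 4 of the 18 passed, all lower in Inter (22.2%, against 5.19% of all genes), but HOXA10 and HOXA9 (-1.09, adjusted p = 0.077) did not. Kid Hereford replicate 2 is 1 of those same day arrays. Without the 2 arrays 5 passed, with a median of -0.43.

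Of 24 regional transcription factors outside the HOX clusters, 6 were higher in Inter (25.0%, against 6.49% of all genes) and 3 lower (12.5%, near the 10.3% of all genes), with a median of 0.02. SHOX2, which patterns the proximal limb, had levels of -1.30, 0.24 and 1.13 in Inter and -3.62, -2.80 and -0.06 in Kid. Only Kid Hereford replicate 2, at -0.06, stood within the Inter range. The difference was 2.82 ± 0.33 (SE, adjusted p = 8.2e-05), a 7.05-fold higher level in Inter, and 2.97 (adjusted p = 0.013) on the same day. EMX2, a homeodomain factor of the urogenital system, shoulder girdle and brain, had levels of -1.39, 0.24 and 0.94 in Inter and -3.64, -1.83 and -0.05 in Kid and differed by 1.92 ± 0.41 (SE, adjusted p = 0.0054). EN1, a factor of ventral limb and dermis, had levels of -5.97, -3.55 and -2.59 in Inter and -6.0, -4.86 and -4.20 in Kid and differed by 1.39 ± 0.28 (SE, adjusted p = 0.0037). Its lowest Inter array was Inter Angus replicate 3 and its highest Kid array was Kid Hereford replicate 2.

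OSR2, an odd-skipped factor of limb and palate, and MEOX2, a factor of somites and limb muscle, were also higher in Inter, at 2.43 ± 0.60 and 0.51 ± 0.16. Lower in Inter were IRX5 (-1.30 ± 0.33), IRX6 (-0.57 ± 0.18) and TBX5 (-0.94 ± 0.29). The first pair belong to the Iroquois family, and TBX5 patterns heart and forelimb. These last 5 genes were named after their values were seen. LHX1, a LIM homeobox factor needed for kidney development, is no member of the list but ranked among the 15 highest in Kid, with levels of -6.38, -5.77 and -5.21 in Inter and -5.88, -3.69 and -2.15 in Kid and a difference of -1.83 ± 0.36 (SE, adjusted p = 0.0036). Of the 12 Kid arrays 9 lay above every Inter array. Of the 24 listed factors, 7 were higher (29.2%, against 2.96% of all genes) and 2 lower (8.33%, against 5.19%) against the same day Kid arrays, where IRX5 (-1.19, adjusted p = 0.067) and TBX5 (-1.10, adjusted p = 0.088) did not pass.

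**Figure D2:**
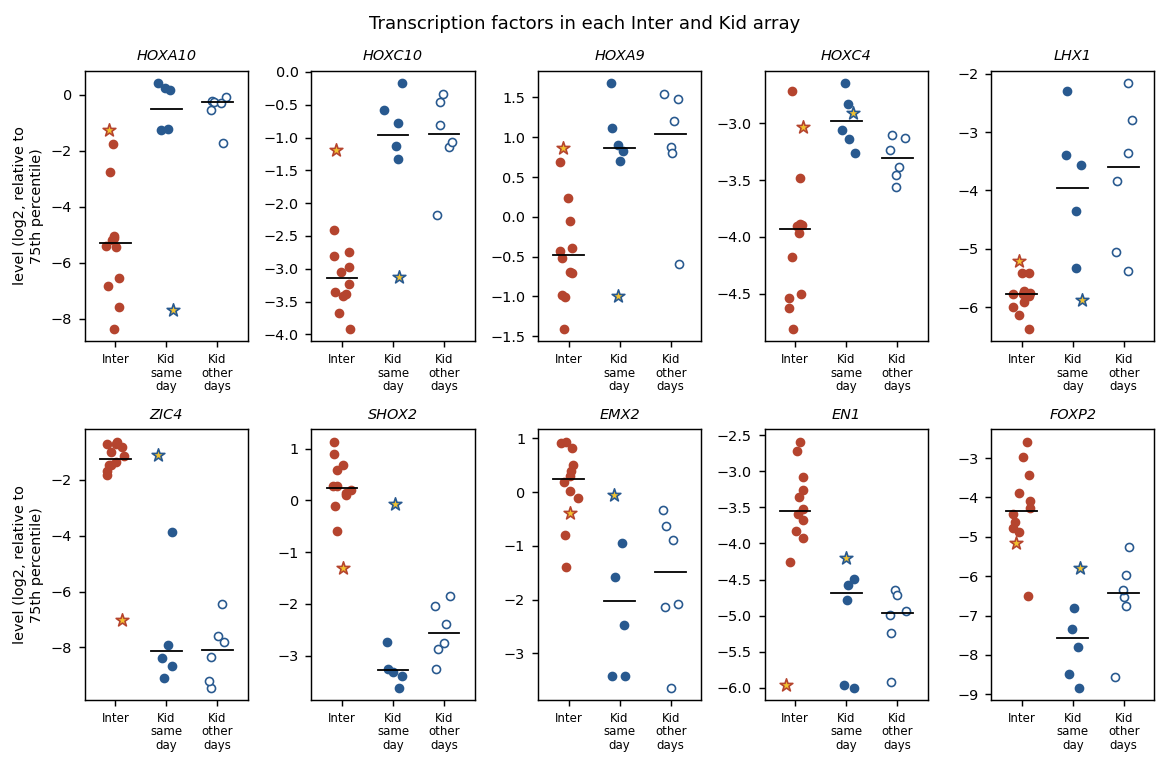
Level of 10 transcription factor genes (vertical axes, log2 relative to the 75th percentile of the array) in each Inter array (red), each Kid array of the same scan day (filled blue) and each Kid array of other days (open blue). Black lines are medians, and stars mark Kid Hereford replicate 2 and Inter Angus replicate 3. In the HOXA10 panel the Kid star lies at -7.67 and the Inter star at -1.25, each among the arrays of the other depot.

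Collagen genes were higher in Inter. Of 14 collagen chains measured, 10 were higher in Inter (71.4%, against 6.49% of all genes) and 0 lower, with a median difference of 0.62, and all 14 had a positive difference. Chains of fibril and filament forming collagens were among those that passed. COL5A2 of type V, which sets fibril width, had levels of 3.06, 3.35 and 3.76 in Inter and 1.90, 2.42 and 3.42 in Kid and differed by 0.85 ± 0.15 (SE, adjusted p = 0.0018). The ranges overlapped only through a few Kid arrays. COL6A2 and COL6A3 of type VI, the beaded filaments around cells, differed by 0.67 ± 0.12 (SE, adjusted p = 0.0017) and 0.81 ± 0.16 (SE, adjusted p = 0.0036). COL18A1, the basement membrane collagen that holds endostatin, differed by 0.57 ± 0.11 (SE, adjusted p = 0.0024). COL1A1, COL1A2 and COL3A1, the main chains of fibrous tissue, differed by 1.04 ± 0.35, 1.13 ± 0.31 and 0.97 ± 0.22, and with COL6A1, COL8A1 and COL15A1 complete the 10. The basement membrane chains COL4A1 (0.07) and COL4A2 (0.22) and the fibril chains COL5A1 (0.40) and COL11A1 (0.14) did not pass. Against the same day Kid arrays 6 of 14 passed, all higher (42.9%, against 2.96% of all genes), with a median of 0.61, and COL1A1 (1.05, adjusted p = 0.096), COL1A2, COL6A3 and COL15A1 did not. Without the 2 arrays COL1A1 differed by 0.95 (adjusted p = 0.069).

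Tendon genes were higher in Inter in a way that differed strongly between arrays. Of 6 tendon and perimysium genes measured, 4 passed, all higher (66.7%, against 6.49% of all genes), with a median of 1.94. TNMD, which encodes the tendon membrane protein tenomodulin, had levels of -7.36, -4.65 and 3.75 in Inter and -9.69, -6.92 and -3.85 in Kid and differed by 4.13 ± 1.10 (SE, adjusted p = 0.017). Only 5 Inter arrays lay above all Kid arrays. THBS4, a matrix protein of tendon and muscle, had levels of -0.27, 2.18 and 6.72 in Inter and -1.33, -0.14 and 1.46 in Kid and differed by 2.78 ± 0.63 (SE, adjusted p = 0.0076). MKX, a transcription factor of tendon cells, differed by 2.29 ± 0.56 (SE, adjusted p = 0.011), and FMOD, the collagen binding proteoglycan fibromodulin, by 1.60 ± 0.49 (SE, adjusted p = 0.034). COMP (0.67) and TNC (1.51) did not pass. The summed level of the list was 1.36 to 7.45 in Inter and 0.81 to 2.17 in Kid.

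Skeletal muscle markers were high together with the tendon list in 1 array. None of 15 myofibre genes passed, but all 15 had a positive difference, with a median of 1.07, and their summed level was 1.07 to 9.95 in Inter and 1.28 to 4.45 in Kid, with medians of 1.82 and 1.94. Inter Wagyu x Angus replicate 2b held the highest summed level of both lists. The array next in myofibre level, Inter Wagyu x Angus replicate 2a at 6.56, had a tendon level of 2.61, and the arrays next in tendon level, Inter Angus replicate 4a at 6.72 and Inter Wagyu x Angus replicate 3 at 5.90, had myofibre levels of 2.90 and 1.68. Without that array 3 of 6 tendon genes passed, with a median of 1.63, and the myofibre median was 0.49. The part of muscle in the tendon result was not tested. Against the same day Kid arrays 0 tendon genes passed by limma, with a median of 1.68. TNMD then differed by 3.14 (adjusted p = 0.18) and THBS4 by 2.36 (adjusted p = 0.093).

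Ligands and inhibitors of the activin, BMP and TGF-beta families were higher in Inter where they passed. Of 15 measured, 7 were higher (46.7%, against 6.49% of all genes) and 0 lower, with a median of 0.63. Among the ligands, BMP2, a bone morphogenetic protein, had levels of -1.76, -0.86 and -0.09 in Inter and -3.12, -1.68 and -1.30 in Kid and differed by 1.08 ± 0.19 (SE, adjusted p = 0.0019). The lowest Inter array was Inter Angus replicate 3. TGFB3, a transforming growth factor, differed by 0.92 ± 0.19 (SE, adjusted p = 0.0043), and BMP5 by 0.63 ± 0.19. Among the inhibitors, FST, which encodes follistatin and binds activin and myostatin, had levels of 0.68, 1.20 and 1.67 in Inter and -0.88, 0.20 and 1.31 in Kid and differed by 1.03 ± 0.18 (SE, adjusted p = 0.0017). GREM1, the BMP antagonist gremlin, differed by 1.46 ± 0.29 (SE, adjusted p = 0.0038) and NOG, the BMP antagonist noggin, by 1.28 ± 0.38. FSTL1, a follistatin-like matrix protein, completed the 7 at 0.95 ± 0.27. BMP5, NOG and FSTL1 were named after their values were seen. On the same day 6 of 15 passed, all higher in Inter (40%, against 2.96% of all genes), and BMP5 did not (0.66, adjusted p = 0.097).

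Of 14 WNT ligands and inhibitors measured, 4 were higher in Inter (28.6%, against 6.49% of all genes) and 2 lower (14.3%, against 10.3%). The ligands WNT11 and WNT2B differed by 1.08 ± 0.24 (SE, adjusted p = 0.0062) and 1.61 ± 0.47. Among the secreted inhibitors, DKK2 differed by 1.80 ± 0.36 (SE, adjusted p = 0.0039) and SFRP4 by 1.88 ± 0.48 (SE, adjusted p = 0.014), both higher in Inter, while SFRP1 at -1.26 ± 0.35 (SE, adjusted p = 0.022) and SFRP2 at -1.37 ± 0.41 were lower. WNT2B and SFRP2 were named after their values were seen. The 2 lower inhibitors did not pass against the same day Kid arrays, where SFRP1 differed by -1.23 (adjusted p = 0.063) and SFRP2 by -1.0 (adjusted p = 0.25).

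Of 13 genes of the IGF axis 4 were higher in Inter, all of them binding proteins (30.8%, against 6.49% of all genes), and the receptor IGF1R was lower (7.69%, against 10.3% of all genes). IGFBP6, which prefers IGF2, had levels of 3.68, 5.90 and 6.52 in Inter and 2.73, 4.12 and 5.89 in Kid and differed by 1.38 ± 0.38 (SE, adjusted p = 0.019). IGFBP5 differed by 0.93 ± 0.28 (SE, adjusted p = 0.029), IGFBP4, named after its value was seen, by 0.52 ± 0.18, and IGFBP1 by 1.94 ± 0.63 (SE, adjusted p = 0.042) with 9 Inter and 3 Kid arrays above background. The ligands IGF1 (0.24) and IGF2 (-0.17) did not pass, and IGF1R differed by -0.29 ± 0.09 (SE, adjusted p = 0.035). The direction of IGF1R changed with scan day blocked in all 96 arrays. None of the 13 passed against the same day Kid arrays by limma at an adjusted p of 0.05, where IGFBP6 differed by 1.46 (adjusted p = 0.06).

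Genes that control the step from precursor to adipocyte also differed. Of 14 measured, 4 were higher in Inter (28.6%, against 6.49% of all genes) and 1 lower (7.14%, against 10.3%). DLK1, preadipocyte factor 1, which holds precursors back and is an imprinted gene, had levels of 1.59, 2.41 and 3.94 in Inter and 2.34, 3.77 and 4.46 in Kid. Its highest Inter array was Inter Angus replicate 3 and its lowest Kid array was Kid Hereford replicate 2, and without these 2 the depots did not overlap. It differed by -1.22 ± 0.23 (SE, adjusted p = 0.0026), a 2.34-fold lower level in Inter, and by -1.25 (adjusted p = 0.031) on the same day. All 5 probes of DLK1 passed in the same direction. KLF5, a transcription factor of early adipogenesis, had levels of -4.26, -2.92 and -1.91 in Inter and -6.18, -5.18 and -3.40 in Kid and differed by 1.94 ± 0.30 (SE, adjusted p = 0.00091). CCN5, a secreted matricellular protein of mesenchymal precursors, differed by 1.30 ± 0.24 (SE, adjusted p = 0.0026), PDGFRA, the receptor that marks adipocyte precursors, by 0.77 ± 0.20 (SE, adjusted p = 0.014), and EBF1, an adipogenic transcription factor named after its value was seen, by 0.63 ± 0.18. The master regulators PPARG (-0.24) and CEBPA (-0.26) did not pass. Of the genes that did, EBF1 alone failed to pass against the same day Kid arrays (0.52, adjusted p = 0.058).

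**Figure D3:**
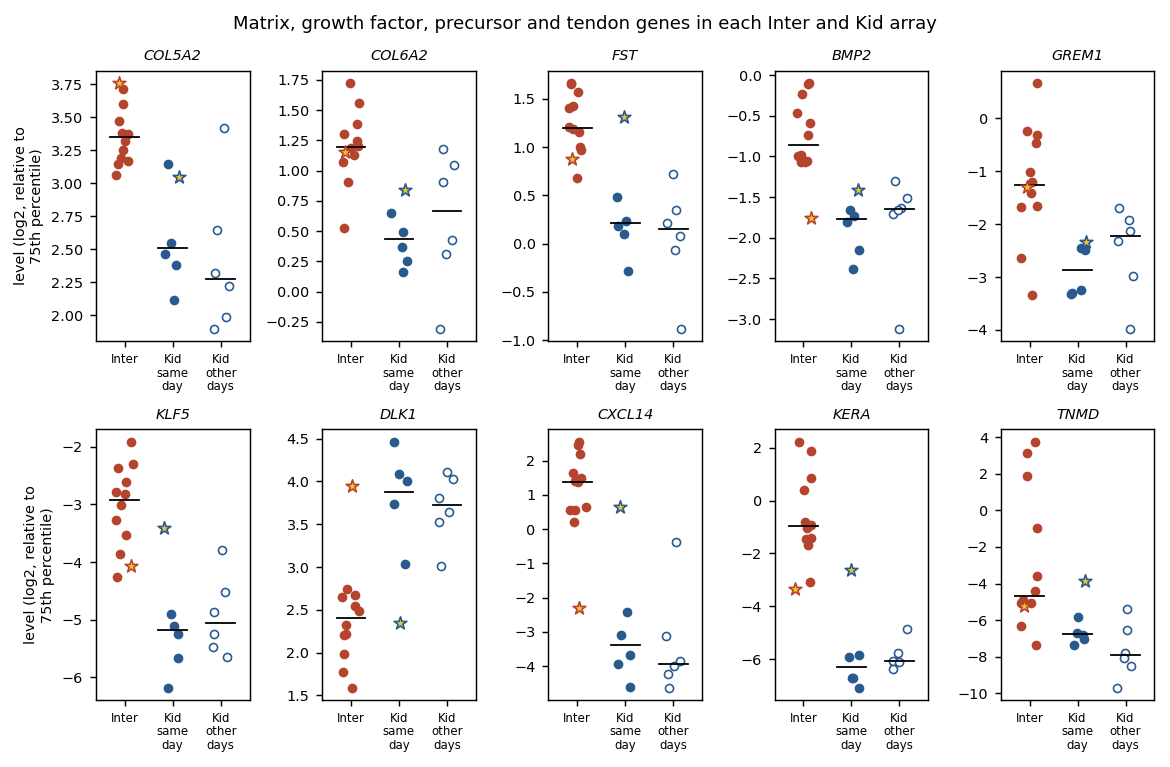
Level of 10 genes of matrix, growth factor signalling, precursor control and tendon (vertical axes, log2 relative to the 75th percentile of the array) in each Inter array (red), each Kid array of the same scan day (filled blue) and each Kid array of other days (open blue), with medians as black lines and stars for the 2 arrays that went against their labels. DLK1 has medians of 2.41 in Inter and 3.77 over all Kid arrays, and TNMD spreads from -7.36 to 3.75 within Inter.

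A part of the mitochondrial genes passed when all 12 Kid arrays were used, lower in Inter by small amounts, and most did not pass. Of 81 genes of the respiratory chain and ATP synthase, 28 were lower in Inter (34.6%, against 10.3% of all genes) and 0 higher, with a median of -0.28 and 77 of 81 differences below 0. NDUFB4 of complex I had levels of 2.68, 2.82 and 3.12 in Inter and 2.87, 3.26 and 3.44 in Kid and differed by -0.37 ± 0.08 (SE, adjusted p = 0.0044). ATP5PF of ATP synthase differed by -0.36 ± 0.08 (SE, adjusted p = 0.0076), and COX7A2 and COX6B1 of cytochrome c oxidase by -0.48 ± 0.11 (SE, adjusted p = 0.0095) and -0.41 ± 0.10 (SE, adjusted p = 0.01). Of 75 proteins of the mitochondrial ribosome, which translates the subunits encoded in mitochondrial DNA, 24 were lower (32%, against 10.3% of all genes) and 0 higher, with a median of -0.19. MRPS6 differed by -0.49 ± 0.11 (SE, adjusted p = 0.007), MRPL54 by -0.40 ± 0.09 (SE, adjusted p = 0.0073), and MRPL27 and MRPL41 by -0.37 ± 0.09 and -0.39 ± 0.10. The chaperone HSPD1 of the mitochondrial matrix and its partner HSPE1 were lower at -0.33 ± 0.08 and -0.30 ± 0.09 and both passed. In the cytosol, 2 of 79 ribosomal proteins passed (2.53% lower, against 10.3%), RPL39 among them, and that list had a median of -0.03.

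The mitochondrial counts depended on slide, scan day and scaling more than the medians did. With the slide as a random block 2 of 81 respiratory chain genes (2.47%) and 1 of 75 mitochondrial ribosome genes (1.33%) were lower, against 1.75% of all genes, with medians of -0.25 and -0.18. Against the same day Kid arrays, 4 of 81 respiratory chain genes and 4 of 75 mitochondrial ribosome genes passed, all lower, with medians of -0.30 and -0.18. These are 4.94 and 5.33% of the lists, near the 5.19% of all genes that were lower in that comparison. Of the genes named, NDUFB4, MRPS6, MRPL54 and HSPD1 passed, and ATP5PF, COX7A2, COX6B1, MRPL27, MRPL41, HSPE1 and RPL39 did not. With the arrays centred on their means 14 and 9 were lower, and with the series matrix values as deposited 0 and 0, with medians of -0.18 and -0.10 where all genes had 0.04. The same day Kid arrays include Kid Hereford replicate 2, which went against its label. Without the 2 arrays more genes of both lists passed on the same day, and so did more probes (6130 against 2894). The parts of scan day and of that array in the lower same day counts were not tested.

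**Figure D4:**
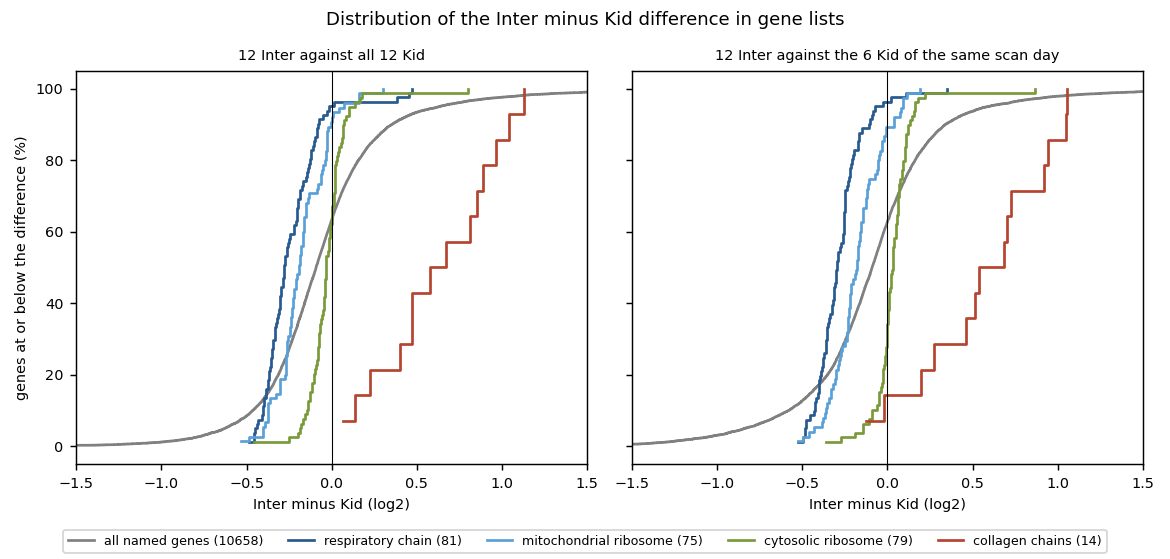
Share of genes (%, vertical axis) at or below each Inter minus Kid difference (log2, horizontal axis) for all named genes and 4 lists, against all 12 Kid arrays (left) and the 6 of the same scan day (right). The respiratory chain (-0.28) and mitochondrial ribosome (-0.19) have medians below that of all genes (-0.09), and collagen chains lie to the right of it at 0.62.

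Of the genes that handle fat itself, 0 of fatty acid synthesis, 2 of triacylglycerol synthesis and 1 of lipolysis passed, all lower in Inter. None of 15 genes of fatty acid synthesis passed by limma, and their median was 0.01. FASN, the fatty acid synthase, differed by -0.15 ± 0.33 (SE), ACACA, acetyl-CoA carboxylase, by 0.14 ± 0.34, and SCD, stearoyl-CoA desaturase, by -0.01 ± 0.20. At the first step of triacylglycerol synthesis GPAT3, a glycerol-phosphate acyltransferase, had levels of 1.32, 2.77 and 3.35 in Inter and 2.55, 4.20 and 4.75 in Kid and was lower in Inter at -1.27 ± 0.24 (SE, adjusted p = 0.0029), and by -1.23 (adjusted p = 0.027) on the same day, with all 3 of its probes passing. Its relative GPAM differed by 0.00 ± 0.31. LPIN1, the phosphatidate phosphatase lipin 1, was lower at -1.20 ± 0.33 (SE, adjusted p = 0.02), so that 2 of 12 genes of the list passed (16.7% lower, against 10.3% of all genes). On the same day LPIN1 differed by -1.11 (adjusted p = 0.061). In lipolysis only ADRB3 of 16 genes passed (6.25% lower, against 10.3%), while the lipases PNPLA2 (-0.21) and LIPE (0.19) and the receptor ADRB1 (-0.07) did not.

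Genes of fatty acid uptake, fatty acid oxidation and cholesterol synthesis were lower in Inter where they passed. CD36, the fatty acid translocase, differed by -0.30 ± 0.08 (SE, adjusted p = 0.019), and 2 of 13 genes of uptake passed, both lower (15.4%, against 10.3% of all genes). Of 17 fatty acid oxidation genes 3 were lower (17.6%, against 10.3% of all genes), among them the mitochondrial dehydrogenases ACADM and ACADVL at -0.44 ± 0.13 and -0.27 ± 0.09. In cholesterol synthesis 3 of 16 genes passed, all lower (18.8%, against 10.3% of all genes), CYP51A1 and SQLE among them, and all 16 differences were below 0 with a median of -0.32. None of the genes named from these 3 lists passed against the same day Kid arrays, and without the 2 arrays ACADM differed by -0.37 (adjusted p = 0.0504) and was just short of the threshold.

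UCP1, the uncoupling protein that makes heat in brown fat, did not pass. Its levels were -7.69, -5.66 and -3.43 in Inter and -6.20, -4.80 and -1.99 in Kid, with 7 Inter and 11 Kid arrays above background, and the difference was -1.44 ± 0.61 (SE, adjusted p = 0.11). The ranges overlapped for most arrays. None of the 13 brown and beige fat genes passed by limma, and their median was 0.19. DIO2, the deiodinase that activates thyroid hormone, differed by 1.16 ± 0.42 and PPARGC1A, a driver of mitochondrial growth, by 0.19 ± 0.33. Against the same day Kid arrays 3 of the 13 were lower in Inter (23.1%, against 5.19% of all genes) and 0 higher. They were CKMT1A, a mitochondrial creatine kinase, at -0.73 (adjusted p = 0.031), PPARA, a nuclear receptor of fatty acid oxidation, at -0.75 (adjusted p = 0.026) and TMEM26, a membrane protein used as a beige fat marker, at -1.19 (adjusted p = 0.026), each named after its value was seen.

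Of 16 complement genes 3 were higher in Inter (18.8%, against 6.49% of all genes) and 2 lower (12.5%, near the 10.3% of all genes). C6, a component of the membrane attack complex, had levels of -3.02, -1.81 and -0.13 in Inter and -4.60, -3.75 and -2.50 in Kid and differed by 1.94 ± 0.34 (SE, adjusted p = 0.0015). CFB, factor B of the alternative pathway, differed by 1.86 ± 0.47 (SE, adjusted p = 0.012) and the protease C1S, named after its value was seen, by 0.63 ± 0.20. C3, the central component, was lower in Inter at -1.08 ± 0.33 (SE, adjusted p = 0.032). C6 and CFB passed against the same day Kid arrays, and C3 (-0.91, adjusted p = 0.21) and C1S (0.56, adjusted p = 0.15) did not.

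Of 14 genes of lymphocytes and lymph nodes 1 was higher in Inter (7.14%, near the 6.49% of all genes) and 4 were lower (28.6%, against 10.3% of all genes). CCL21, the chemokine of lymph nodes and lymphatic vessels, had levels of -2.71, -1.51 and 0.53 in Inter and -4.98, -3.21 and -0.81 in Kid and was higher in Inter at 1.76 ± 0.48 (SE, adjusted p = 0.019). Lower in Inter were MS4A1 (CD20) and CD79A of B cells at -1.15 ± 0.27 (SE, adjusted p = 0.0095) and -0.57 ± 0.14, and CD8A and CD3E of T cells at -0.64 ± 0.17 and -0.68 ± 0.21. CD3E was named after its value was seen. None of 9 macrophage genes passed by limma, with a median of -0.61. The summed macrophage level was 5.41 to 7.49 in Inter and 5.50 to 8.19 in Kid. CXCL3, a neutrophil chemokine, was lower at -0.97 ± 0.32 (SE, adjusted p = 0.046), and 1 of 15 interferon-stimulated genes passed (6.67% lower, below the 10.3% of all genes), IRF7 at -0.62 ± 0.19 (SE, adjusted p = 0.032). In the same day comparison CCL21 (2.53, adjusted p = 0.022), MS4A1 (-1.75, adjusted p = 0.014) and CD8A passed, while CD79A, CD3E, CXCL3 and IRF7 did not. With the slide as a random block 0 of the 14 lymphocyte and lymph node genes were higher, CCL21 included, and 1 was lower (7.14%, against 1.75% of all genes).

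Smaller groups with members past the threshold were the clock, guidance cues and retinoid genes. NR1D1, the nuclear receptor REV-ERB alpha of the circadian clock, differed by 1.52 ± 0.30 (SE, adjusted p = 0.0033) and ARNTL, its target BMAL1, by 0.50 ± 0.13 (SE, adjusted p = 0.015), both higher in Inter, while the other 8 clock genes did not pass. The share higher was 20% of the clock list, against 6.49% of all genes. Time of sampling was not in the labels used. NRP1, a receptor of semaphorins and VEGF, differed by 0.49 ± 0.08 (SE, adjusted p = 0.0015), NTN4, a netrin of basement membranes, by 1.26 ± 0.23 (SE, adjusted p = 0.0024), and SEMA3C, a semaphorin, by 0.66 ± 0.22, which made 3 of 8 guidance genes higher (37.5%, against 6.49% of all genes) and none lower. BCO2, which cleaves carotenoids, differed by 0.71 ± 0.17 (SE, adjusted p = 0.01) and CYP26B1, which breaks down retinoic acid, by 0.61 ± 0.17 (SE, adjusted p = 0.02), both higher in Inter, with only 1 of the 2 probes of CYP26B1 in that direction. BCO2 and CYP26B1 were 2 of 14 retinoid genes (14.3% higher, against 6.49%). Among 11 adipokines only ADM, the vasodilator adrenomedullin, passed (9.09%, near the 10.3% of all genes), lower in Inter at -0.69 ± 0.16 (SE, adjusted p = 0.0094), and LEP, leptin, differed by -0.09 ± 0.31. Of these clock, guidance, retinoid and adipokine genes ARNTL (0.44, adjusted p = 0.051) and SEMA3C (0.62, adjusted p = 0.052) did not pass against the same day Kid arrays, and the others that passed did so there too. In that comparison 1 gene each of the clock, guidance and retinoid lists was lower in Inter (10, 12.5 and 7.14%, against 5.19% of all genes). With the slide as a random block 1 clock, 2 guidance and 1 retinoid genes were higher (10, 25 and 7.14%, against 2.07% of all genes).

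Some markers of tissues near the kidney passed, all lower in Inter and from short lists. Of 11 adrenal genes 3 were lower in Inter (27.3%, against 10.3% of all genes). They were CHGA of chromaffin cells at -0.62 ± 0.20 (SE, adjusted p = 0.042), PNMT, which makes adrenaline, at -0.42 ± 0.12 (SE, adjusted p = 0.022) and CYP11B1, which makes cortisol, at -0.45 ± 0.15 (SE, adjusted p = 0.048). The summed level of the adrenal list was 4.29 to 5.01 in Inter and 4.57 to 5.20 in Kid. With the series matrix values centred on the 75th percentile the list's median turned from -0.42 to 0.01. Of 4 kidney genes 1 passed (25% lower, against 10.3%), AQP2, the water channel of the collecting duct, at -0.45 ± 0.11 (SE, adjusted p = 0.0094). Its list turned from -0.25 to 0.19 in the same way. Of 6 mesothelial genes KRT8 and UPK3B passed (33.3% lower, against 10.3%) at -0.51 ± 0.14 (SE, adjusted p = 0.019) and -0.34 ± 0.11 (SE, adjusted p = 0.038), but 2 of the 3 probes of KRT8 had the opposite sign. On the same day AQP2 alone of these 6 genes passed, and the mean summed mesothelial level was 5.09 in Inter and 5.08 in those Kid arrays.

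SOX10 and GFAP, genes of Schwann cells, were lower in Inter at -1.33 ± 0.29 (SE, adjusted p = 0.0062) and -0.77 ± 0.23 (SE, adjusted p = 0.029), 2 of 8 in their list (25%, against 10.3% of all genes), and the globins HBB and HBG were lower at -1.13 ± 0.29 and -0.84 ± 0.27, 2 of 6 genes of red blood cells (33.3%). These 4 genes also passed against the same day Kid arrays, where 2 of 8 and 3 of 6 were lower (25 and 50%, against 5.19% of all genes). The summed levels of both lists ran the other way within their spread, with means of 4.22 ± 0.52 (SD) in Inter and 4.0 ± 0.61 in Kid for Schwann cells and of 4.05 ± 0.59 and 3.85 ± 0.49 for red blood cells. No endothelial gene of 11 passed by limma, and their median was -0.14. DES, the muscle filament desmin, was the only one of 8 smooth muscle genes that passed (12.5% higher, against 6.49% of all genes), at 0.61 ± 0.14 (SE, adjusted p = 0.0089), with 1 of its 4 probes past the threshold. None of 16 immediate early genes, which respond to handling, passed, and 1 of 16 heat shock genes, HSPB8, was higher in Inter at 0.97 ± 0.32 (SE, adjusted p = 0.042). That share was 6.25%, near the 6.49% of all genes, and 2 of the 16 were lower (12.5%, near the 10.3% of all genes). On the same day DES (0.36, adjusted p = 0.13) and HSPB8 (0.73, adjusted p = 0.14) did not pass.

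**Figure D5:**
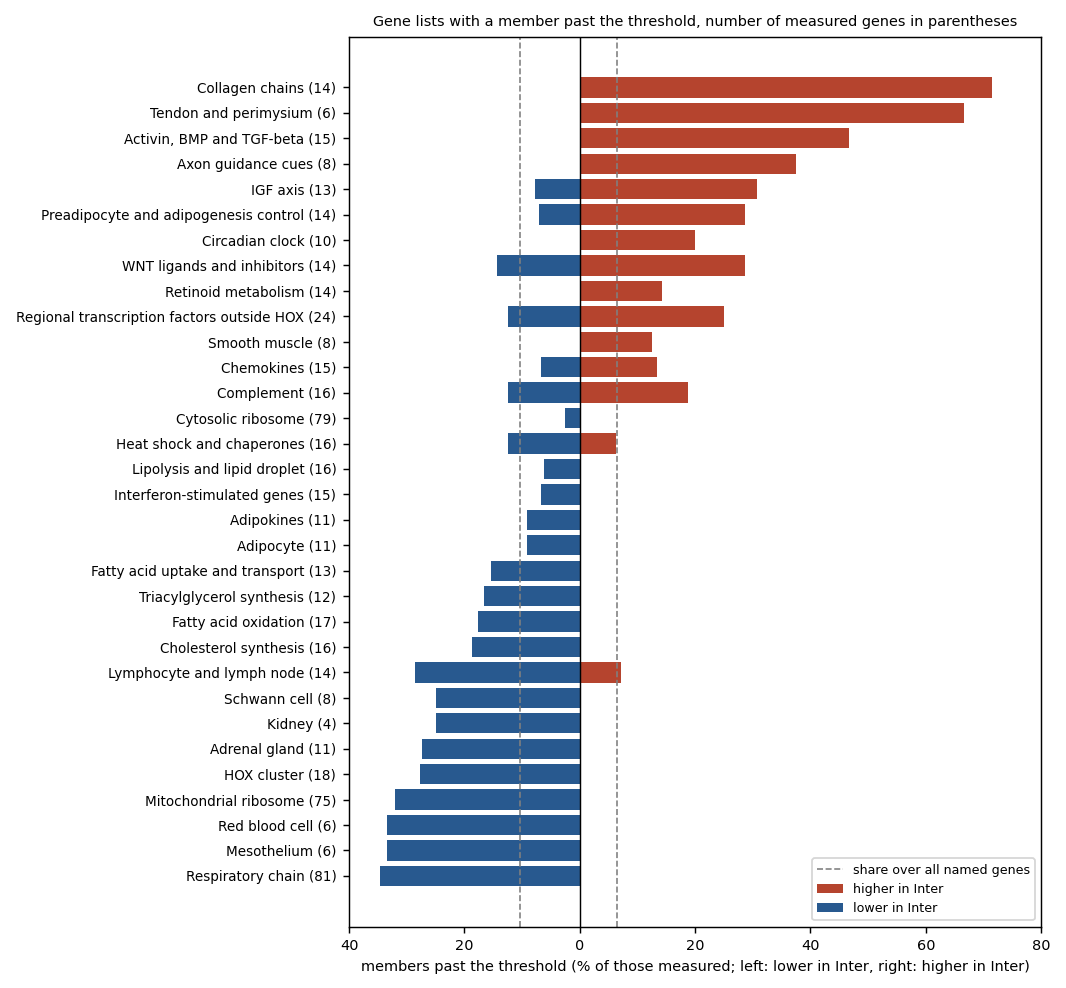
Share of measured genes in each list (%, horizontal axis) that were higher in Inter (red, right) or lower in Inter (blue, left) past the threshold, for the lists with any such gene and with the number measured in parentheses. Dashed lines give the share over all named genes, 6.49% higher and 10.3% lower. Collagen chains reach 71.4% higher and the respiratory chain 34.6% lower.

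TDH, TMEFF2 and CLDN10 were taken up whatever their values. TDH, threonine dehydrogenase, had levels of -5.0, -0.69 and 0.67 in Inter and -3.94, -1.92 and -0.51 in Kid and differed by 0.69 ± 0.54 (SE, adjusted p = 0.4). TMEFF2, a membrane protein with follistatin domains, had levels of -2.44, -2.08 and -1.71 in Inter and -6.31, -3.86 and -1.76 in Kid. Inter was far more even than Kid, and the highest Kid array was Kid Hereford replicate 2 at -1.76. It differed by 1.67 ± 0.34 (SE, adjusted p = 0.0041), and by 1.40 (adjusted p = 0.021) on the same day. CLDN10, a claudin of tight junctions, had levels of -5.70, 0.05 and 1.38 in Inter and -6.42, -3.99 and -0.16 in Kid and differed by 2.82 ± 0.90 (SE, adjusted p = 0.038), but by 2.78 (adjusted p = 0.13) on the same day. Breed by breed, Angus had 3.53, Hereford 4.31 and Wagyu x Angus 0.60, and in the last Inter replicate 2a stood at -5.70.

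Without the 2 arrays that went against their labels, 99 of the 109 genes named by rule had a larger difference and 10 a smaller one, and all but CYP1A1 and ACADM passed. HOXA10 then differed by -5.06, ZIC4 by 6.72, SHOX2 by 3.25, ADRB3 by -2.70 and DLK1 by -1.48. With all 24 arrays 5 of 34227 probes had no overlap between the depots, and without the 2 arrays 238 had none, or 0.695%. The list counts moved to 31 lower and 1 higher of 81 respiratory chain genes, 31 lower and 1 higher of 75 mitochondrial ribosome genes and 10 higher of 14 collagen chains. Calls rose over all probes as well, to 3684 higher and 3668 lower from 2701 and 2504. Against the same day Kid arrays and without the 2 arrays, the list counts were 18, 17 and 8, and 6130 probes differed, 2322 higher in Inter and 3808 lower.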

How the data were processed

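Total RNA of 96 bovine samples was read on one colour Agilent 4x44K arrays, of which the 12 Inter and 12 Kid arrays were compared. The authors deposited scanner output made with Agilent Feature Extraction 10.7.3.1, whose processed signal per spot is a linear intensity with background removed and no scaling across arrays. The authors also deposited a series matrix of log2 values for 34227 probes, and 99.9% of these lie within 0.001 of log2 of the background-subtracted median spot signal. The array design names its bovine genome build only through gene identifiers, so no coordinates are given.

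Each array's 75th percentile was subtracted from its log2 processed signals for the 34227 of 43653 non-control probes that the series matrix holds, without spots marked as outliers. Probes were named through RefSeq accessions (assembly ARS-UCD2.0, names only) and then through the paper's tables, which gave names to 62.7% of probes and 10658 genes. Depth is the signal over background on an array, and the number of arrays limits the precision.

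The fits used lmFit and eBayes of limma 3.58.1 with breed as covariate (R 4.3.3, data.table, version 1.17.8), with Benjamini-Hochberg adjustment of p across every probe tested. The dependence on breed was an F test of the interaction. Gene lists are described by counts and medians over the brightest probe of each gene. Summaries came from pandas 2.3.3 and numpy 2.4.6 under Python 3.11.15, and figures from matplotlib 3.10.9. The scripts were tested on simulated data.

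The genes named are the 15 highest and 15 lowest differences past the threshold with the same sign in all 3 breeds and at least 10 of 12 arrays of the higher depot above background, up to 4 members of each of 38 lists by smallest adjusted p, and UCP1, HOXA10, DLK1, TDH, TMEFF2 and CLDN10. Further members named in the text are marked as named after their values were seen, or are given by value to complete a family. Some genes counted in the lists are not reported here by name. The comparison, lists and tests were chosen with earlier results of these data known.

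The alternatives were other scalings (quantile, mean centring, normexp with an offset of 50, series matrix values), other probe filters, scan day, slide or replicate number as a block, Kid arrays of the same or other scan days, no breed term, the spread of all 60 fat arrays, the methods' t-test, single breeds and each array left out. Leaving out the 2 arrays that went against their labels, or the Inter array with most muscle signal, was chosen after seeing the data. Replicate numbers did not pair the samples, as the deviations of same-numbered samples correlated between -0.07 and 0.28 in 11 pairs and only 2 pairs exceeded 0.1. The labels give some numbers more than once within a breed and depot, and these arrays are told apart by a letter.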

Additional observations from a re-analysis of the deposited data

How the results depend on the processing

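With all arrays 5205 probes and 150 listed genes differed. The counts of probes and of listed genes were 2678 and 67 with scan day blocked in the 24 arrays, 2894 and 70 against the Kid arrays of the same scan day, 1162 and 40 with slide as a random block and 3136 and 68 with the series matrix values as deposited. Against the Kid arrays of the other scan days 86 listed genes differed. Within single breeds the counts were 0 and 0 in Angus, 0 and 0 in Hereford, and 195 and 7 in Wagyu x Angus. Without single arrays the counts ran from 3478 to 7057 probes and from 97 to 204 listed genes, lowest without Kid Wagyu x Angus replicate 1 and highest without Kid Hereford replicate 2. The probes shared with the 5205 numbered 1675 against the same day Kid arrays, 1469 with the day blocked in the 24 arrays and 3925 with it blocked in all 96. IGF1R turned to 0.081 with the day blocked in all 96 arrays, and no other named gene changed direction under any alternative that was run. The cause was not tested in any of these cases. Breed dependence was recomputed with the series matrix values as deposited, scan day blocked in the 24 arrays, the filter on dim probes and each array left out, and it stayed at 0 probes in these, with 457 to 2273 at an unadjusted p under 0.05. The replicate block gave 4394 probes and 126 listed genes, and the numbers pair no samples. With the median over all probes of a gene, the medians of 2 of the 38 lists changed sign, fatty acid synthesis from 0.01 to -0.03 and brown and beige fat from 0.19 to -0.06. Inter was scanned on 1 day only, so a difference carried by the Kid arrays of other days alone cannot be told apart from scan day. Dim genes such as ZIC4 and PLG are measured near background in the lower depot, where signal limits their size.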

Other observations

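The genes that set Inter apart from Kid were also read in the 12 arrays each of subcutaneous rump fat (SC), intramuscular fat (IMF) and omental fat (Omen). They are given as mean ± SD of the level in each depot, with no test and no order between depots, since the scan days of the depots differ. HOXA10 stood at 1.36 ± 0.40 in SC, -2.36 ± 0.60 in IMF and -8.08 ± 0.92 in Omen, beside -5.10 ± 2.21 in Inter and -1.03 ± 2.19 in Kid. HOXC10 stood at -0.99 ± 0.33 in SC, -2.15 ± 0.54 in IMF and -4.15 ± 0.38 in Omen, beside -3.01 ± 0.71 in Inter and -1.09 ± 0.83 in Kid, so that SC and Kid lay within 1 SD of each other. SHOX2, the limb factor, stood at 1.03 ± 0.31 in SC, 1.40 ± 0.70 in IMF and -3.13 ± 0.67 in Omen. ZIC4 stood at -6.66 ± 0.94 in SC, -0.36 ± 0.48 in IMF and -8.39 ± 0.68 in Omen, beside -1.66 ± 1.73 in Inter and -7.32 ± 2.47 in Kid. The tendon genes THBS4 and TNMD had 3.52 ± 0.69 and 0.00 ± 1.16 in IMF, and -0.63 ± 0.84 and -7.0 ± 2.19 in SC.

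ADRB3, the beta-3 adrenergic receptor, stood at -4.15 ± 0.47 in SC, -2.64 ± 0.96 in IMF and -0.18 ± 1.44 in Omen, beside -1.13 ± 1.42 in Inter and 1.25 ± 0.67 in Kid. DLK1, preadipocyte factor 1, stood at 2.77 ± 0.31 in SC, 3.97 ± 0.81 in IMF and 2.33 ± 0.54 in Omen. CXCL14 stood at 2.44 ± 0.80 in SC and -2.79 ± 0.76 in Omen, beside 1.06 ± 1.31 in Inter and -3.11 ± 1.66 in Kid. TMEFF2 stood at 0.12 ± 0.61 in Omen and -4.59 ± 1.19 in SC.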
